A study of Mus musculus with 15 samples.

Results

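Claudins and occludin are the membrane proteins of the tight junction, the belt that closes the space between neighbouring epithelial cells. The 10 genes described here are Cldn1, Cldn2, Cldn3, Cldn4, Cldn7, Cldn8, Cldn12, Cldn15, Cldn23 and Ocln, matched by symbol to the gene identifiers of a count table of 32939 genes. All 10 were in the table and all 10 were among the 17404 genes tested. The RNA came from colonic crypts of wild-type mice, in 3 groups of 5 samples that had all received an adeno-associated virus (AAV) carrying a short hairpin RNA. FL-shAlpl samples came from mice on a CDAA diet with fatty liver given AAV-shAlpl, FL-shGFP samples from mice on the same diet with fatty liver given AAV-shGFP, and NL-shGFP samples from mice on a normal diet with normal liver given AAV-shGFP. CDAA feeds lack choline and supply defined L-amino acids, and Alpl encodes tissue-nonspecific alkaline phosphatase. The diet cannot be told apart from the liver condition, AAV-shAlpl was given only on the CDAA diet, and neither age, sex nor the cells that the virus reached were labelled.

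Claudins polymerise within the membrane into strands, and the claudin that a strand contains sets what can pass between the cells. Sealing claudins raise the electrical resistance of the paracellular path, whereas pore-forming claudins open it to small ions and water. In the intestine Cldn2 and Cldn15 form cation pores that return sodium to the lumen, while Cldn1, Cldn3, Cldn4 and Cldn8 are regarded as sealing. Cldn2 is known as a claudin of the crypt, and Cldn23 as one of differentiated colonocytes near the surface.

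The sequenced libraries held 33.3 M to 58.6 M counts. Levels are given as CPM, read counts relative to the scaled library size, and differences as log2 fold changes ± standard error from edgeR's quasi-likelihood test, with p adjusted over all tested genes and a threshold of 0.05. The pan-epithelial markers were abundant in every library, with 10720 to 16760 CPM summed over 9 genes in FL-shAlpl, 11870 to 17560 CPM in FL-shGFP and 9647 to 11860 CPM in NL-shGFP. Mitochondrially encoded genes took 14.8% to 24.3% of the counts in FL-shAlpl, 13.7% to 21.5% in FL-shGFP and 28.0% to 37.5% in NL-shGFP. Alpl itself was scarce, with counts of 6, 2, 2, 2 and 0 across FL-shAlpl, of 15, 14, 18, 25 and 23 across FL-shGFP, and of 0, 2, 0, 0 and 0 across NL-shGFP. NL-shGFP libraries 3 and 4, and to a lesser degree 1 and 2, resembled each other more closely than any other NL-shGFP pair (median chi-square per gene 1.503 and 2.19, against 3.09 to 8.14), though the test still found a difference, so each was counted singly and summed only as an alternative. Whether each replicate was its own animal is not stated, so the p-values may measure only a technical spread.

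The proximal promoters of Cldn2, Cldn15 and Cldn1 are shown. Cldn2 and Cldn15 both fell in FL-shGFP against NL-shGFP, though in FL-shAlpl against FL-shGFP Cldn15 rose and Cldn2 did not pass. Cldn1 had the widest range between groups. Each run is the 250 bases before the RefSeq start on the strand of the gene (GRCm38.p6), with matches to the CDX core TTTAT on either strand in capitals. CDX homeobox proteins are intestinal transcription factors, and CDX2 is known to activate the human CLDN2 promoter.
Cldn2 (chrX:139800558-139800807, plus strand): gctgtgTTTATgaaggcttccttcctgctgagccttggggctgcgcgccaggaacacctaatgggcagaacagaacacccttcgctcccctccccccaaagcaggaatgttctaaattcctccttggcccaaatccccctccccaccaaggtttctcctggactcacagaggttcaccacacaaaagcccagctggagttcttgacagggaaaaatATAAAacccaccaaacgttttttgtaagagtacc
Cldn15 (chr5:136967619-136967868, plus strand): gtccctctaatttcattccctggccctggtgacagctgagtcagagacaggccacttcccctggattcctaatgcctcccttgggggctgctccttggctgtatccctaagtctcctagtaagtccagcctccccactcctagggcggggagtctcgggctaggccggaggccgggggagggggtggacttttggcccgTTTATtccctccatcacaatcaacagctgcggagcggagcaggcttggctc
Cldn1 (chr16:26371840-26372089, minus strand): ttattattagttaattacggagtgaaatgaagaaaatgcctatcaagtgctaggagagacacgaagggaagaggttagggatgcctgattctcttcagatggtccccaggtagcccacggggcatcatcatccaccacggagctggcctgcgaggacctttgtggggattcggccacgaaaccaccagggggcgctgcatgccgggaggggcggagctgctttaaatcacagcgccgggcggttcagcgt
The Cldn2 window held TTTAT beginning 244 bases before the start and its reverse complement ATAAA beginning 34 bases before it. The Cldn15 window held 1 copy, beginning 51 bases before the start, and the Cldn1 window held none. The bases just after the Cldn2 start were not found in that gene's transcripts of another annotation, GENCODE. Those after the Cldn15 and Cldn1 starts were found, so the Cldn2 positions hold for the RefSeq start only. Of 32851 such windows in RefSeq, 37.3% held this core, so a match is common and describes letters only. None of these 3 windows matched the TCF/LEF core CTTTGA (13.8% of all windows), the Snail E-box CAGGTG (17.2%) or the GRHL motif AACCNGTT (1.79%), searched on both strands. RefSeq entries were found for 8 of the 10 genes, Cldn8 and Cldn23 having none in the table used.

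Against the normal-diet group the pore-forming Cldn2 and Cldn15 of FL-shGFP crypts moved opposite to most other members, whether sealing or of other or mixed role. Both pore-forming claudins fell and 3 of the 4 sealing claudins rose, as did the 4 other members, leaving Cldn4 as the member that did not pass. In all, 7 members rose and 2 fell, where 46.7% of all tested genes passed, 25.1% upward and 21.6% downward. The median change of the 10 members was 0.55, against -0.00 over all tested genes. Of the 9 pan-epithelial genes 6 rose and none fell in the same comparison, with a median of 0.44. The counts of members depend in part on the scaling of the libraries: when libraries were scaled by the pan-epithelial genes, which shifts the median of all genes by -0.46, Cldn1 and Cldn8 were the members that still passed upward. The part of the called genes that were higher was 53.8%, and it became 21.6% with that scaling and 65.8% with library totals alone. Fewer cells of a type and less RNA per cell cannot be told apart in these bulk samples.

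**Figure D1:**
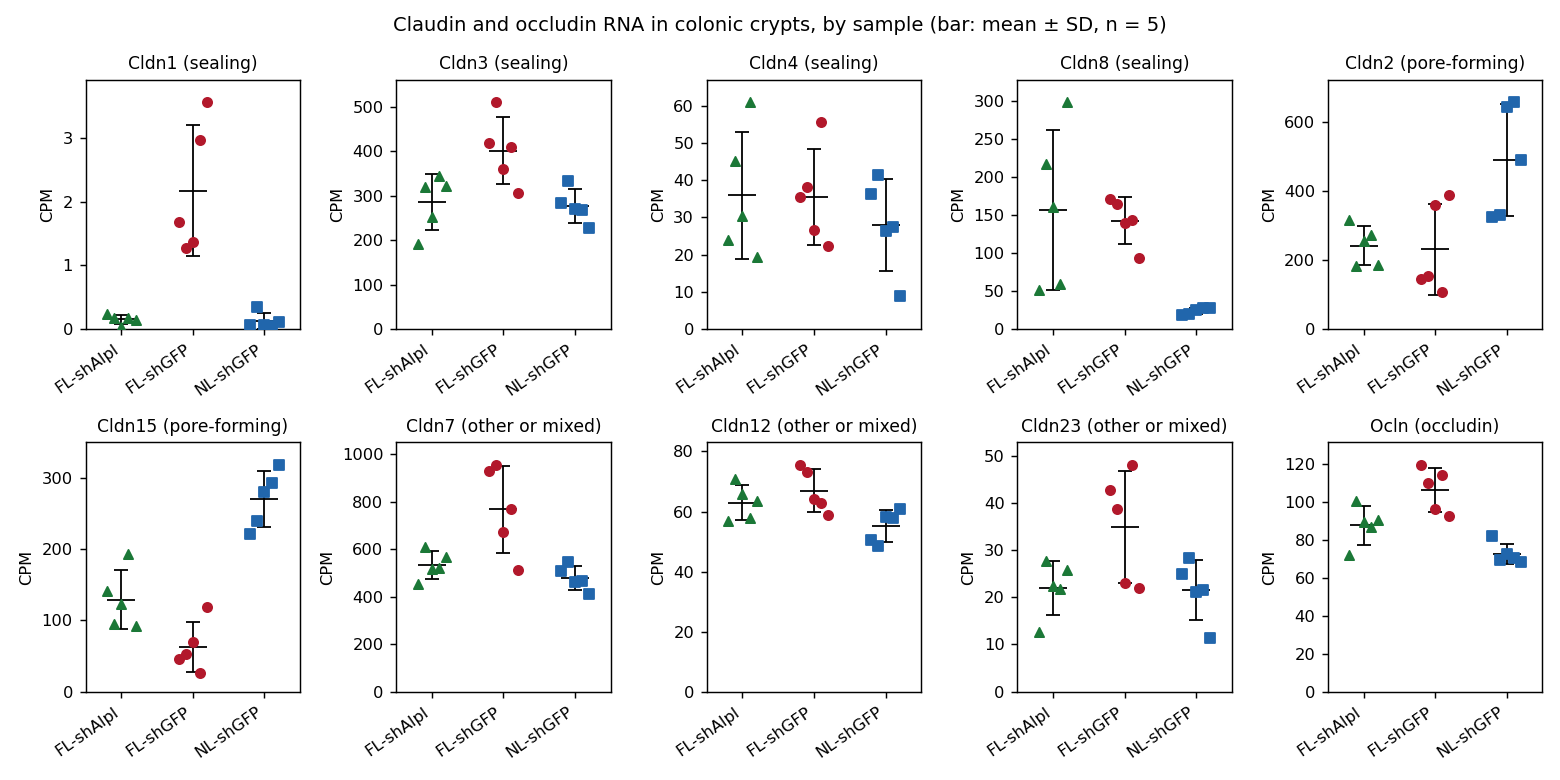
CPM of each gene (y axes, linear and starting at 0) in the 5 samples of FL-shAlpl, FL-shGFP and NL-shGFP (points), with the mean ± SD as a bar. Cldn15 lies below every NL-shGFP sample in both fatty-liver groups, Cldn8 above every one, and Cldn1 stands apart in FL-shGFP.

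Among the pore-forming claudins, Cldn15, a sodium-permeable pore, showed the larger fall. Its levels were 142, 95.3, 124, 194 and 92.2 CPM in FL-shAlpl replicates 1 to 5, 46.0, 52.8, 69.4, 26.4 and 119 CPM in FL-shGFP, and 221, 239.9, 281, 292 and 318 CPM in NL-shGFP. Every fatty-liver sample lay below every NL-shGFP sample, while FL-shAlpl and FL-shGFP overlapped through FL-shGFP replicate 5. Cldn15 fell in FL-shGFP against NL-shGFP (-2.11 ± 0.32, edgeR adjusted p = 0.000185), a call that held in all 28 alternatives. In FL-shAlpl it was higher than in FL-shGFP (1.04 ± 0.31, edgeR adjusted p = 0.0189), with 3 of 5 samples above every FL-shGFP sample. That call was lost without FL-shAlpl replicate 4 (0.85, edgeR adjusted p = 0.0549) or without FL-shGFP replicate 1 (0.95, edgeR adjusted p = 0.0501). Cldn15 was still lower in FL-shAlpl than in NL-shGFP (-1.06 ± 0.31, edgeR adjusted p = 0.0293). This last call held in 16 of 28 alternatives and was lost without FL-shAlpl replicate 2, 3 or 5 or NL-shGFP replicate 3, 4 or 5, at edgeR adjusted p from 0.0576 to 0.0729, with fold changes from -1.05 to -0.96.

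Cldn2, the pore for cations and water that typifies the crypt, was measured at 315, 183, 256, 272 and 184 CPM in FL-shAlpl, 145, 155, 359.6, 108 and 389 CPM in FL-shGFP, and 325, 329.6, 644, 657 and 492 CPM in NL-shGFP. All 5 FL-shAlpl samples lay below the lowest NL-shGFP sample, whereas FL-shGFP was spread widely, with replicates 3 and 5 inside the NL-shGFP range. Cldn2 fell in FL-shGFP against NL-shGFP (-1.08 ± 0.35, edgeR adjusted p = 0.0190). With library totals in place of scaling factors this fall did not pass (-0.97, edgeR adjusted p = 0.0526). Between FL-shAlpl and FL-shGFP the difference was 0.07 ± 0.34 (95% interval -0.68 to 0.81, edgeR adjusted p = 0.898). Between FL-shAlpl and NL-shGFP it was -1.02 ± 0.34 and narrowly missed the threshold (edgeR adjusted p = 0.0543). Without FL-shAlpl replicate 1 it passed (-1.13, edgeR adjusted p = 0.0488), as it did without FL-shGFP replicate 3, 4 or 5 (-1.015, edgeR adjusted p from 0.0341 to 0.0481). It also passed with pan-epithelial scaling (-1.29), 1 CPM in 5 samples (-1.03), DESeq2 (-1.01), voom (-1.22) and only the 2 groups compared (-1.02). In all it passed in 9 of 28 alternatives.

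The sealing claudins differed among themselves more than the pore-forming pair did. Cldn8, a sealing claudin of the distal colon known to limit the return of sodium, had 51.3, 217, 160.1, 58.9 and 298 CPM in FL-shAlpl, 171, 165, 139, 144 and 93.3 CPM in FL-shGFP, and 19.0, 20.1, 25.2, 27.7 and 27.3 CPM in NL-shGFP. Both fatty-liver groups lay wholly above NL-shGFP, and the FL-shAlpl samples spanned a wider range than the FL-shGFP samples. Cldn8 rose in FL-shGFP against NL-shGFP (2.58 ± 0.40, edgeR adjusted p = 0.000217) and in FL-shAlpl against NL-shGFP (2.72 ± 0.41, edgeR adjusted p = 0.000594), each in all 28 alternatives. The difference between FL-shAlpl and FL-shGFP was 0.14 ± 0.38 (95% interval -0.69 to 0.97, edgeR adjusted p = 0.801). It turned negative under 5 alternatives, none of which passed.

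Cldn1, the sealing claudin without which the mouse skin barrier fails, was scarce in all crypts and highest in FL-shGFP. Its read counts were 14, 10, 2, 8 and 6 in FL-shAlpl, 78, 63, 68, 100 and 189 in FL-shGFP, and 2, 14, 2, 2 and 4 in NL-shGFP. On the scaled level this averaged 0.153 ± 0.0726 CPM in FL-shAlpl, 2.17 ± 1.03 CPM in FL-shGFP and 0.128 ± 0.126 CPM in NL-shGFP (SD, n = 5 each). No FL-shGFP sample overlapped with a sample of the other groups. Low counts were usually even numbers (72.4% to 77.2% of counts from 1 to 12), so they may stand for fewer molecules than they show. Cldn1 rose in FL-shGFP against NL-shGFP (4.01 ± 0.55, edgeR adjusted p = 7.50e-05) and fell in FL-shAlpl against FL-shGFP (-3.80 ± 0.53, edgeR adjusted p = 0.000206), and both calls held in all 28 alternatives. FL-shAlpl differed from NL-shGFP by 0.22 ± 0.58 (95% interval -1.04 to 1.48, edgeR adjusted p = 0.840).

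Cldn3, an abundant sealing claudin of the gut, had 191, 319, 252, 345 and 322 CPM in FL-shAlpl, 418, 511, 361, 411 and 307 CPM in FL-shGFP, and 284, 334, 270.5, 267 and 227 CPM in NL-shGFP. In FL-shGFP 4 of 5 samples exceeded every NL-shGFP sample. Cldn3 rose in FL-shGFP against NL-shGFP (0.54 ± 0.17, edgeR adjusted p = 0.0166) and fell in FL-shAlpl against FL-shGFP (-0.49 ± 0.17, edgeR adjusted p = 0.0331). With pan-epithelial scaling neither passed: the first was 0.05 (edgeR adjusted p = 0.753), or 0.51 above the median of all genes, and the second -0.31 (edgeR adjusted p = 0.0674), or -0.47 relative to that median. A scaling moves all genes nearly alike, so values relative to the median hardly change with it by construction. For the rise of Cldn3 the value was 0.54 in the main fit. Here and for the genes below, such values are no check that a rise survives the scaling. With the close NL-shGFP libraries summed, the rise gave an edgeR adjusted p of 0.0504 and the fall one of 0.0548. The fall was also lost without FL-shAlpl replicate 1 or 3 or FL-shGFP replicate 1, 2 or 4, at edgeR adjusted p from 0.0606 to 0.0906, with fold changes from -0.48 to -0.37. FL-shAlpl and NL-shGFP differed by 0.05 ± 0.17 (edgeR adjusted p = 0.882).

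Cldn4, a sealing claudin of wide epithelial distribution, passed in no comparison. It ranged from 19.3 to 60.9 CPM in FL-shAlpl, from 22.4 to 55.5 CPM in FL-shGFP and from 8.99 to 41.3 CPM in NL-shGFP. The differences were 0.34 ± 0.38 for FL-shGFP against NL-shGFP (95% interval -0.48 to 1.16, edgeR adjusted p = 0.478), 0.02 ± 0.38 for FL-shAlpl against FL-shGFP (95% interval -0.80 to 0.84, edgeR adjusted p = 0.976) and 0.36 ± 0.38 for FL-shAlpl against NL-shGFP (95% interval -0.47 to 1.18, edgeR adjusted p = 0.565).

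**Figure D2:**
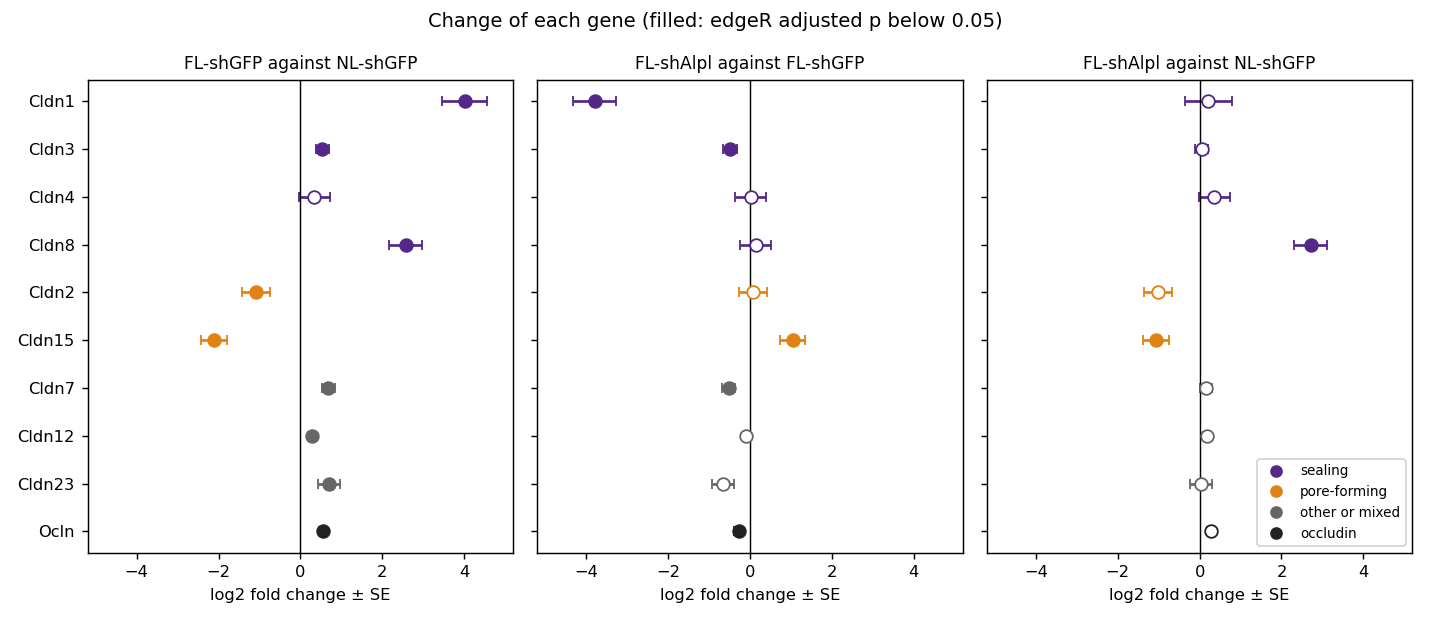
Log2 fold change of each gene (x axis, bars ± SE of the edgeR estimate) in the 3 comparisons, coloured by role, with filled points where the adjusted p is below 0.05. In FL-shGFP against NL-shGFP Cldn1 (4.01) and Cldn8 (2.58) lie farthest right and Cldn15 (-2.11) farthest left, and in FL-shAlpl against FL-shGFP Cldn1 lies at -3.80 and Cldn15 at 1.04.

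The 4 members of other or mixed role rose in FL-shGFP against NL-shGFP by 0.28 to 0.70, a range that takes in the sealing claudin Cldn3 (0.54). Cldn7, which binds the adhesion molecule Epcam and is found along the lateral membrane, had 452, 609, 518, 521 and 569 CPM in FL-shAlpl, 930.4, 954, 674, 769.7 and 512 CPM in FL-shGFP, and 507, 547, 461, 466 and 412 CPM in NL-shGFP. FL-shGFP exceeded every NL-shGFP sample in 4 of 5 samples, and replicate 5 lay within the other groups. Cldn7 rose in FL-shGFP against NL-shGFP (0.68 ± 0.16, edgeR adjusted p = 0.00269), but not with pan-epithelial scaling (0.18, edgeR adjusted p = 0.150, or 0.64 above the median of all genes). It fell in FL-shAlpl against FL-shGFP (-0.52 ± 0.16, edgeR adjusted p = 0.0173), except without FL-shGFP replicate 1 (-0.44, edgeR adjusted p = 0.0528). FL-shAlpl and NL-shGFP differed by 0.16 ± 0.16 (edgeR adjusted p = 0.534).

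Ocln, the MARVEL-domain protein occludin, had 71.9, 100.5, 89.4, 86.8 and 90.6 CPM in FL-shAlpl, 119.6, 110.3, 96.4, 114 and 92.5 CPM in FL-shGFP, and 81.9, 69.6, 72.7, 70.6 and 68.4 CPM in NL-shGFP. Every FL-shGFP sample lay above every NL-shGFP sample, and FL-shAlpl lay between the groups with overlap on both sides. Ocln rose in FL-shGFP against NL-shGFP (0.55 ± 0.10, edgeR adjusted p = 0.000543), though not with pan-epithelial scaling (0.07, edgeR adjusted p = 0.551, or 0.54 above the median of all genes). It fell slightly in FL-shAlpl against FL-shGFP (-0.28 ± 0.10, edgeR adjusted p = 0.0393). That call held in 10 of 28 alternatives and was lost without FL-shAlpl replicate 1, 3, 4 or 5, FL-shGFP replicate 1, 2 or 4, or NL-shGFP replicate 2, 3 or 4, at edgeR adjusted p from 0.0510 to 0.108, with fold changes from -0.29 to -0.21. Against NL-shGFP the FL-shAlpl level differed by 0.27 ± 0.10 (edgeR adjusted p = 0.0709), and it passed without FL-shAlpl replicate 1 (0.34, edgeR adjusted p = 0.0197). It also passed with library totals alone (0.41), voom (0.32) and both FPKM fits (0.38 and 0.40). With pan-epithelial scaling its sign turned (-0.040, edgeR adjusted p = 0.819), so this difference depends on the scaling.

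Cldn12, a claudin linked to calcium permeability, moved least of the members that passed. It ranged from 56.9 to 70.8 CPM in FL-shAlpl, from 58.8 to 75.5 CPM in FL-shGFP and from 48.6 to 60.8 CPM in NL-shGFP. Cldn12 rose in FL-shGFP against NL-shGFP (0.28 ± 0.10, edgeR adjusted p = 0.0274), although its sign turned with pan-epithelial scaling (-0.21, edgeR adjusted p = 0.154, or 0.25 above the median of all genes). The call was lost without FL-shGFP replicate 1 (0.23, edgeR adjusted p = 0.0817) or 2 (0.24, edgeR adjusted p = 0.0678) and without NL-shGFP replicate 1 (0.24, edgeR adjusted p = 0.0708) or 2 (0.23, edgeR adjusted p = 0.0759). It was also lost with the close NL-shGFP libraries summed (0.25, edgeR adjusted p = 0.116) and with no filter on low counts (0.25, edgeR adjusted p = 0.102), and held in 20 of 28 alternatives. The differences of FL-shAlpl from FL-shGFP (-0.09 ± 0.10, edgeR adjusted p = 0.503) and from NL-shGFP (0.19 ± 0.10, edgeR adjusted p = 0.186) did not pass.

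Cldn23 had 12.6, 27.6, 22.3, 21.8 and 25.7 CPM in FL-shAlpl, 42.7, 38.8, 23.0, 48.0 and 22.0 CPM in FL-shGFP, and 25.0, 28.3, 21.1, 21.6 and 11.3 CPM in NL-shGFP. FL-shGFP replicates 1, 2 and 4 stood above all other samples, and replicates 3 and 5 lay among them. Cldn23 rose in FL-shGFP against NL-shGFP (0.70 ± 0.27, edgeR adjusted p = 0.0458), a call that held in 11 of 28 alternatives. It was lost without FL-shGFP replicate 1, 2 or 4 or NL-shGFP replicate 1, 3, 4 or 5 (fold changes from 0.53 to 0.76, edgeR adjusted p from 0.0543 to 0.123), and without FL-shAlpl replicate 2, 3, 4 or 5, which enters through the shared spread (edgeR adjusted p from 0.0513 to 0.0563). It was lost as well with pan-epithelial scaling (0.20, edgeR adjusted p = 0.402, or 0.67 above the median of all genes), with the close NL-shGFP libraries summed (0.80, edgeR adjusted p = 0.0795), and with no filter (0.67), only the 2 groups compared (0.70) or no mitochondrially encoded genes (0.69), at edgeR adjusted p from 0.0502 to 0.1045. FL-shAlpl differed from FL-shGFP by -0.66 ± 0.27 (edgeR adjusted p = 0.0674), which passed without FL-shGFP replicate 3 or 5 or NL-shGFP replicate 5 (fold changes from -0.79 to -0.66, edgeR adjusted p from 0.0306 to 0.0420). FL-shAlpl and NL-shGFP differed by 0.04 ± 0.27 (edgeR adjusted p = 0.946).

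Across FL-shAlpl against FL-shGFP, Cldn15 was the member that rose, Cldn1, Cldn3, Cldn7 and Ocln fell, and 5 members did not pass, with a median of -0.18 against -0.00 over all tested genes. In that comparison 36.0% of all tested genes passed, 18.0% upward and 17.9% downward. The count of members that fell ranged from 1 to 5 when 1 sample was left out. It was 1 without FL-shGFP replicate 1 and 2 without FL-shGFP replicate 2 or 4 or FL-shAlpl replicate 1 or 3. Between FL-shAlpl and NL-shGFP, Cldn8 rose, Cldn15 fell and 8 members did not pass, with a median of 0.17 against 0.05. There 17.4% of all tested genes passed, 9.31% upward and 8.12% downward. The higher part of the called genes was 53.4% there, 20.3% with pan-epithelial scaling, 75.0% with library totals alone and from 70.6% to 71.6% on the FPKM scale. The comparisons share groups: FL-shGFP enters both the first and the second, so opposite signs in them are not independent of each other.

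Lengths differ between genes, so the order of levels was read from the deposited FPKM values, which divide by gene length. Cldn7 and Cldn3 led in every group, with 287 and 237 FPKM in FL-shAlpl, 387 and 314 FPKM in FL-shGFP, and 235 and 210 FPKM in NL-shGFP, and their ranges overlapped within each group. The next places went to Cldn2, Cldn8 and Cldn15 in FL-shAlpl, with 77.7, 68.1 and 64.9 FPKM and overlapping ranges. In FL-shGFP these 3 genes had 71.6, 59.4 and 30.4 FPKM, again each overlapping the next. In NL-shGFP Cldn2 and Cldn15 came next with 140.3 and 122 FPKM, whereas Cldn8 took place 9 of 10 at 9.73 FPKM. Ocln, Cldn4, Cldn12 and Cldn23 lay between 11.04 and 24.9 FPKM on average in all groups, each overlapping its neighbour in the order. Cldn1 was last in every group, below 1 FPKM in each library and clear of the gene above it.

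The balance between the claudin types was described by the part of the summed FPKM of the 9 claudins that Cldn2 and Cldn15 held. It was 26.9%, 12.3%, 19.0%, 21.7% and 12.2% across the 5 FL-shAlpl samples, 6.46%, 6.51%, 16.1%, 4.98% and 22.9% in FL-shGFP, and 27.2%, 25.96%, 39.4%, 40.0% and 41.0% in NL-shGFP. NL-shGFP was highest, with its lowest sample just below the highest FL-shAlpl sample, and the FL-shGFP samples fell into 3 low and 2 higher ones. The means were 18.4 ± 6.32% in FL-shAlpl, 11.4 ± 7.80% in FL-shGFP and 34.7 ± 7.44% in NL-shGFP (SD, n = 5 each). Cldn3 and Cldn7 together held 66.8 ± 2.19% in FL-shAlpl, 76.3 ± 6.46% in FL-shGFP and 58.95 ± 6.67% in NL-shGFP. The summed FPKM of the 9 claudins was 785 ± 73.4 in FL-shAlpl, 916 ± 97.8 in FL-shGFP and 756 ± 32.2 in NL-shGFP. FPKM divides by the library total, which includes mitochondrially encoded counts, and their share was higher in every NL-shGFP library than in the others. These sums therefore depend on that total.

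**Figure D3:**
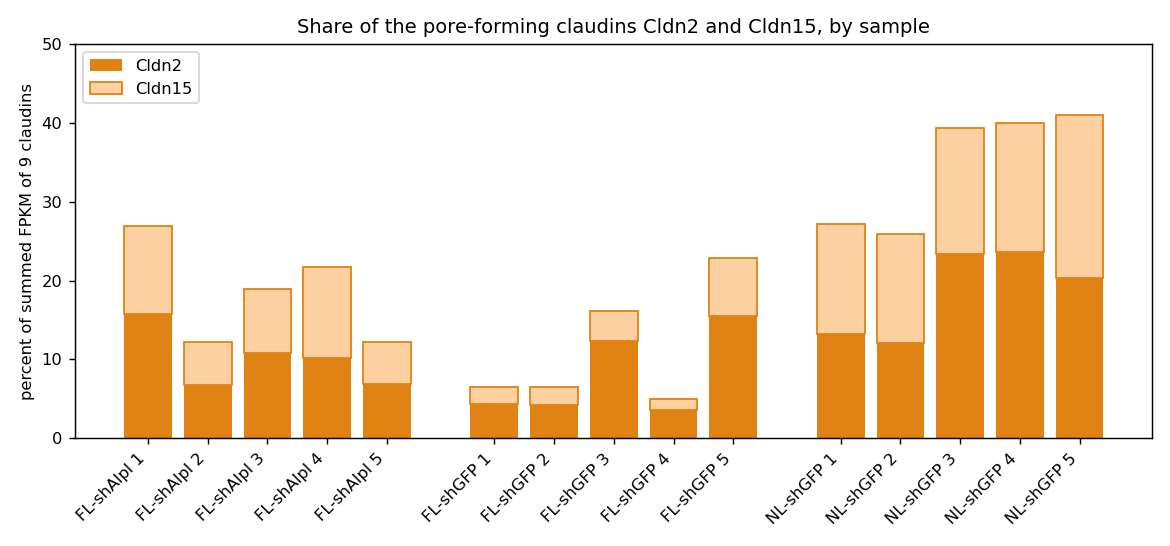
Percent of the summed FPKM of 9 claudins held by Cldn2 (dark) and Cldn15 (light) in each sample, FL-shAlpl, FL-shGFP and NL-shGFP from left to right. FL-shGFP replicates 1, 2 and 4 lie between 4.98% and 6.51%, and the NL-shGFP samples between 25.96% and 41.0%.

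The same balance on a log scale was the mean log2 CPM of Cldn1, Cldn3, Cldn4 and Cldn8 minus that of Cldn2 and Cldn15. It averaged -2.998 ± 0.655 in FL-shAlpl, -1.26 ± 1.02 in FL-shGFP and -4.83 ± 0.59 in NL-shGFP (SD, n = 5 each). FL-shGFP thus lay 3.57 above NL-shGFP, FL-shAlpl 1.74 below FL-shGFP and 1.83 above NL-shGFP, given as a description with no test because the genes were chosen with results known. Leaving out the scarce Cldn1 gave 2.91, -0.92 and 1.99 for these differences.

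Within the groups some of the members varied together and others in opposite directions. Deviations of log2 CPM from the group means were compared over the 15 samples for 65 relations, every pair of members and each member with the mean of the surface colonocyte and of the stem and crypt base markers, with permutation within groups. Of the 45 pairs of members 17 passed on Pearson's r after adjustment, 11 with a positive and 6 with a negative r, and 14 of the 17 passed on Spearman's rho too. The part of all gene pairs that would pass in the same way was not computed, so this count is not a trait particular to the members. Cldn2 and Cldn15 varied in the same direction (Pearson r = 0.85, exact permutation p = 0.000166, adjusted 0.00226; Spearman rho = 0.81, p = 0.000312, adjusted 0.00338), with r = 0.74 after leaving out the 2 samples farthest out on Cldn15 (in every relation, on the gene or list named last). Cldn3 followed Cldn7 (r = 0.81, exact permutation p = 0.000111, adjusted 0.00226; rho = 0.88, p = 7.29e-05, adjusted 0.00198; r = 0.75 without the 2 farthest). Cldn2 ran against Cldn7 (r = -0.78, exact permutation p = 0.00813, adjusted 0.0212; rho = -0.75, p = 0.00901, adjusted 0.0266; r = -0.71 without the 2 farthest). Cldn1, at its low counts, had no relation that passed the adjustment. Cldn8 varied with Cldn12 (r = 0.68, exact permutation p = 0.00148, adjusted 0.00618, and rho = 0.79, exact permutation p = 0.000368, adjusted 0.00342). The r was 0.67 without the 2 farthest, and Cldn12 passed with no other gene or list. The close NL-shGFP libraries are not fully independent points in these relations.

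Most members, but not all, varied with the marker lists of crypt position. On Pearson's r 7 of the 10 passed with the surface colonocyte list, 5 positively and 2 negatively, and 8 of the 10 with the stem and crypt base list, 2 positively and 6 negatively, of which 6 passed on Spearman's rho as well. The part of all tested genes that would pass with these lists was not computed, so whether the members differ from other genes was not tested. Cldn1 and Cldn12 passed with neither list, and Cldn8 missed with the surface list (r = 0.48, exact permutation p = 0.0469, adjusted 0.0816). Cldn23 tracked the mean of the 16 surface colonocyte markers within groups (r = 0.96, exact permutation p = 8.10e-06, adjusted 0.000527; rho = 0.96, p = 5.79e-06, adjusted 0.000376; r = 0.95 without the 2 farthest). Cldn15 ran against that list (r = -0.80, exact permutation p = 0.000560, adjusted 0.00404; rho = -0.90, p = 9.14e-05, adjusted 0.00198; r = -0.73 without the 2 farthest). Cldn2 followed the 16 stem and crypt base markers (r = 0.80, exact permutation p = 0.000345, adjusted 0.00355; rho = 0.73, p = 0.00326, adjusted 0.0132; r = 0.80 without the 2 farthest).

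**Figure D4:**
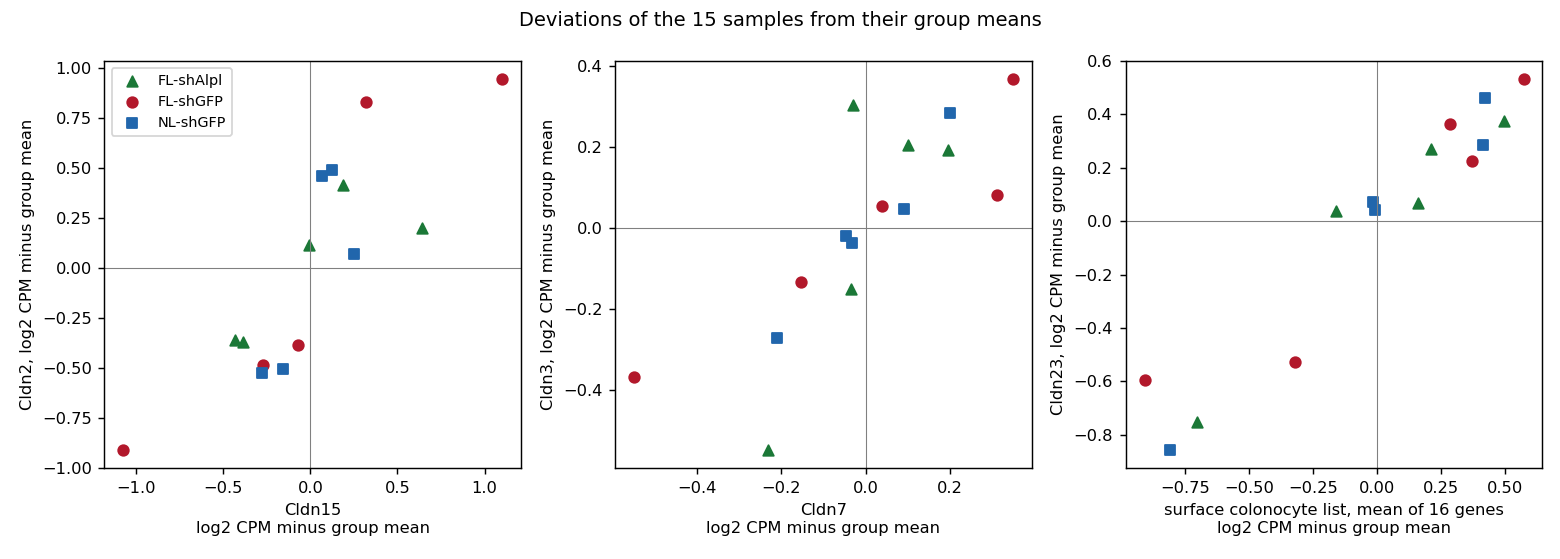
Deviation of each of the 15 samples from its group mean in log2 CPM, for Cldn2 against Cldn15, Cldn3 against Cldn7, and Cldn23 against the mean of 16 surface colonocyte markers. The points run upward in all 3 panels (r = 0.85, 0.81 and 0.96).

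Between the groups the same marker lists changed strongly. Over all tested genes 25.1% rose and 21.6% fell in FL-shGFP against NL-shGFP. In FL-shAlpl against FL-shGFP 18.0% rose and 17.9% fell. Of the 16 surface colonocyte markers 13 rose in FL-shGFP against NL-shGFP, among them the sodium-proton exchanger Slc9a3 (4.05 ± 0.43, edgeR adjusted p = 1.58e-05) and the sodium channel subunit Scnn1g (4.29 ± 0.43, edgeR adjusted p = 9.24e-06). In FL-shAlpl against FL-shGFP 12 of the 16 fell and none rose. Their summed level ran from 6266 to 17580 CPM in FL-shAlpl, from 12500 to 34250 CPM in FL-shGFP and from 3002 to 7093 CPM in NL-shGFP. Of the 16 stem and crypt base markers 14 fell in FL-shGFP against NL-shGFP, including the Wnt target Axin2 (-4.35 ± 0.44, edgeR adjusted p = 1.27e-05), and 13 rose in FL-shAlpl against FL-shGFP. Their summed level ran from 757 to 1008 CPM in FL-shAlpl, from 525 to 876 CPM in FL-shGFP and from 976 to 1347 CPM in NL-shGFP, and no marker of either list was at 0 throughout a group. The 10 immune markers summed to 75.8 to 299 CPM in FL-shAlpl, 336 to 758 CPM in FL-shGFP and 99.7 to 275 CPM in NL-shGFP, with 7 higher in FL-shGFP than in NL-shGFP. The part of these marker shifts in the claudin changes was not tested.

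By likeness within groups alone (highest Pearson r over 15 samples among 10084 other genes of at least 5 CPM, with no test), the genes nearest to Cldn15 were Ephb4 (0.99), Kcnn4 (0.98) and Orc1 (0.97). Those nearest to Cldn8 were Pbxip1 (0.97), Mfsd4a (0.97) and Il18 (0.96), and those nearest to Cldn2 were Uck2 (0.930), Zfp609 (0.928) and Hid1 (0.925).

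Of 17 other claudin and claudin-like genes, 5 were expressed enough to be tested. Of these 5, 3 rose and 1 fell in FL-shGFP against NL-shGFP, beside 25.1% and 21.6% of all tested genes. Cldn14, a sealing claudin best known from the inner ear and kidney, had 2.42, 2.51, 2.20, 3.21 and 4.50 CPM in FL-shAlpl, 6.21, 6.49, 5.14, 9.19 and 2.45 CPM in FL-shGFP, and 0.809, 1.097, 1.05, 1.38 and 0.768 CPM in NL-shGFP. Both fatty-liver groups lay above NL-shGFP. Cldn14 rose in FL-shGFP against NL-shGFP (2.52 ± 0.32, edgeR adjusted p = 4.23e-05), fell in FL-shAlpl against FL-shGFP (-0.99 ± 0.30, edgeR adjusted p = 0.0192), and stood above NL-shGFP in FL-shAlpl (1.53 ± 0.31, edgeR adjusted p = 0.00412). Cldnd1 did not pass (-0.07 ± 0.10, edgeR adjusted p = 0.583), and the other 3, Cldn9, Cldn10 and Cldn17, averaged below 1 CPM in every group.

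Of 11 tested strand and tricellular proteins, the partners of the claudins at the junction, 7 rose and 1, Lsr (-0.72 ± 0.18, edgeR adjusted p = 0.00526), fell in FL-shGFP against NL-shGFP, where 25.1% of all tested genes rose and 21.6% fell. With pan-epithelial scaling, applied to this and the next 4 lists after seeing the data, 4 rose and 2 fell. Ildr1, a protein of the tricellular corner, rose to 375 CPM in FL-shGFP, against 168 CPM in NL-shGFP (1.16 ± 0.16, edgeR adjusted p = 8.85e-05), and fell to 229 CPM in FL-shAlpl (-0.72 ± 0.16 against FL-shGFP, edgeR adjusted p = 0.00418). Clmp, an adhesion protein of the coxsackievirus receptor family, was higher in FL-shGFP (2.71 ± 0.28, edgeR adjusted p = 1.11e-05) and in FL-shAlpl (2.61 ± 0.28, edgeR adjusted p = 5.81e-05) than in NL-shGFP. Marveld2, the tricellulin gene, did not pass in FL-shGFP against NL-shGFP (0.02 ± 0.10, edgeR adjusted p = 0.893). In FL-shAlpl against FL-shGFP 5 of the 11 fell and none rose, beside 17.9% and 18.0% of all tested genes. Lsr was named after its value was seen.

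Of 29 scaffold and plaque genes 16 rose and 6 fell in FL-shGFP against NL-shGFP, with a median of 0.49, beside 25.1% of all tested genes upward and 21.6% downward, so the part that fell was near that of all genes. With pan-epithelial scaling 4 rose and 8 fell, and the median was -0.01 where that of all genes was -0.47. With library totals alone 16 rose and 1 fell. Tjp1, which encodes ZO-1, a scaffold that ties claudins to actin, rose by 1.05 ± 0.18 (edgeR adjusted p = 0.000417). Ybx3, a Y-box factor that binds ZO-1, fell by 0.74 ± 0.13 in FL-shGFP against NL-shGFP (edgeR adjusted p = 0.000403) and rose in FL-shAlpl against FL-shGFP (0.75 ± 0.13, edgeR adjusted p = 0.000804). The polarity gene Pard6b went the other way, with 1.42 ± 0.22 (edgeR adjusted p = 0.000163) and -0.93 ± 0.21 (edgeR adjusted p = 0.00466) in the same comparisons. In FL-shAlpl against FL-shGFP 4 rose, 4 fell and 21 did not pass, a smaller part than the 36.0% of all tested genes that passed. Against NL-shGFP 7 of the 29 were higher in FL-shAlpl and none lower, and with pan-epithelial scaling 1 was higher and 1 lower. With library totals alone 15 were higher and none lower, so this count depends on the scaling.

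Among 17 myosin and claudin regulators 13 rose and 1 fell in FL-shGFP against NL-shGFP, beside 25.1% and 21.6% of all tested genes. With pan-epithelial scaling, which uses 1 of the 17 (Epcam), 4 rose and 2 fell. The kinase Sgk1, which raises sodium channel activity, rose by 3.53 ± 0.34 (edgeR adjusted p = 9.53e-06) and fell by 2.78 ± 0.33 in FL-shAlpl against FL-shGFP (edgeR adjusted p = 9.64e-05). Mylk, the myosin light chain kinase that contracts the junctional ring, rose (1.32 ± 0.25, edgeR adjusted p = 0.000710), as did the protease inhibitor Spint1 (0.88 ± 0.15, edgeR adjusted p = 0.000337) and the ubiquitin ligase Itch (0.51 ± 0.09, edgeR adjusted p = 0.000337). Of 9 stromal markers 5 rose too, beside 25.1% of all tested genes, and their part in the Mylk value was not tested. The 1 that fell was the protease Prss8 (-0.24 ± 0.09, edgeR adjusted p = 0.0360). In FL-shAlpl against FL-shGFP 9 fell and none rose (6 and none with pan-epithelial scaling), beside 17.9% and 18.0% of all tested genes. Against NL-shGFP 2 were higher and 1 lower in FL-shAlpl. These counts became 6 and 0 with library totals alone, and 0 and 4 with pan-epithelial scaling.

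Of 23 transcription factors tied to claudin genes 6 rose, 5 fell and 12 did not pass in FL-shGFP against NL-shGFP. These parts were near the 25.1% of all tested genes that rose and the 21.6% that fell, and with pan-epithelial scaling, which uses 1 of the 23 (Elf3), 2 rose and 10 fell. Cdx2 had 151 CPM in FL-shAlpl, 116 CPM in FL-shGFP and 186 CPM in NL-shGFP, falling in FL-shGFP against NL-shGFP (-0.69 ± 0.12, edgeR adjusted p = 0.000493) and rising in FL-shAlpl against FL-shGFP (0.38 ± 0.12, edgeR adjusted p = 0.0245). Cdx1 had 281 CPM in FL-shAlpl, 192 CPM in FL-shGFP and 235 CPM in NL-shGFP, with changes of -0.29 ± 0.11 (edgeR adjusted p = 0.0414) and 0.55 ± 0.11 (edgeR adjusted p = 0.00210). Klf4, a factor of differentiated epithelium, rose in FL-shGFP against NL-shGFP (1.26 ± 0.25, edgeR adjusted p = 0.00111), and so did Stat3 (0.58 ± 0.11, edgeR adjusted p = 0.000799) and Zeb1 (2.22 ± 0.49, edgeR adjusted p = 0.00212), a repressor of epithelial genes that averaged 3.09 CPM in FL-shGFP. Stromal markers moved too: 5 of 9 rose in FL-shGFP against NL-shGFP, beside 25.1% of all tested genes. In FL-shAlpl against FL-shGFP 3 of the 9 stromal markers fell, beside 17.9%. Their summed level ran from 20.7 to 300 CPM in FL-shAlpl, from 57.1 to 354 CPM in FL-shGFP and from 8.98 to 57.2 CPM in NL-shGFP, with none at 0 throughout a group, and their part in the Zeb1 value was not tested. Hnf4a did not pass (0.02 ± 0.13, edgeR adjusted p = 0.901).

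Adherens junction and desmosome genes were set beside the tight junction for contrast. Of 15 genes 9 rose and 3 fell in FL-shGFP against NL-shGFP, the part that fell being near the 21.6% of all tested genes and the part that rose above their 25.1%. With pan-epithelial scaling, which uses 2 of the 15 (Cdh1 and Cdh17), 2 rose and 5 fell. The desmosomal cadherin Dsg2 rose by 1.28 ± 0.17 (edgeR adjusted p = 5.29e-05) and the liver-intestine cadherin Cdh17 by 1.11 ± 0.18 (edgeR adjusted p = 0.000234), whereas the adhesion receptor Nectin1 fell by 0.91 ± 0.12 (edgeR adjusted p = 5.89e-05). In FL-shAlpl against FL-shGFP 2 rose and 3 fell, together near the 36.0% of all tested genes that passed, Dsg2 (-0.61 ± 0.17, edgeR adjusted p = 0.0109) and Cdh17 (-0.70 ± 0.18, edgeR adjusted p = 0.00739) being among those that fell.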

How the data were processed

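Colonic crypts of mice gave 15 RNA-seq libraries, 5 per group. Per the labels' protocols the RNA was purified on columns and mRNA was enriched, and HISAT2 is named in the submitters' processing notes. How reads were counted, with which strand setting, annotation and genome build, is not given in the sources used here, so reads that overlapping or antisense genes share could not be assigned. The authors deposited integer read counts per gene and FPKM values, the latter equal to the counts per length and library total. Of 32939 genes, 32241 matched a symbol and 698 did not.

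The counts of 17404 genes that passed filterByExpr were fitted with edgeR 4.0.16 (R 4.3.3; quasi-likelihood, robust, TMM, a mean per group, all 15 samples, 12 residual degrees of freedom), two-sided, with Benjamini-Hochberg adjustment at 0.05. The code was tested on simulated data. Correlations used log2 CPM (prior count 2) minus the group mean. The common biological coefficient of variation was 30.2%.

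The members and gene lists were chosen with earlier results of these data known, and no list was given a test of its change between groups. The surface colonocyte and the stem and crypt base lists did enter the permutation tests of correlation with the members. Named were all members, Alpl, other claudins of at least 1 CPM, and per list up to 4 genes of smallest p in FL-shGFP against NL-shGFP, up to 3 in each other comparison, and 2 abundant genes at most that missed the threshold. A gene named in 1 comparison could be given in the others. Of these the text prints part. Of the goblet, endothelial, stromal, and glia and neuron markers 8, 7, 9 and 1 were tested. In FL-shGFP against NL-shGFP 4, 4, 5 and 0 of them were higher, and 2, 0, 0 and 0 lower. Of all tested genes 25.1% were higher and 21.6% lower there.

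The alternatives were RLE factors, library totals alone, pan-epithelial scaling, DESeq2 1.42.0, limma 3.58.1 (voom with quality weights, and limma-trend on log2 FPKM with 1 or 0.1 added), no filter, at least 1 CPM in 5 samples, only the 2 groups compared, a replicate block, no mitochondrially encoded genes, close NL-shGFP libraries summed and each sample left out, and for the balance of sealing and pore-forming claudins also wide lists, summed FPKM, a prior count of 0.5 and, chosen after seeing the data, no Cldn1. After seeing the data, the 5 lists from strand and tricellular proteins to adherens junction and desmosome genes were recounted under the same alternatives. The marker lists and the other claudins were not recounted. Figures used Python 3.11.15 and matplotlib 3.10.9.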

Additional observations from a re-analysis of the deposited data

Results flagged for a closer look

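The Cldn1 level of NL-shGFP replicate 2 stood apart from the other NL-shGFP samples. It was 0.349 CPM, against 0.0530 to 0.114 CPM in the others, from 14 counts in place of 2 to 4. The gap made up 0.795 of the range of the group, above Dixon's critical value of 0.71 for 5 samples. Of 36 groups of values examined this was the 1 that passed, and chance alone flags about 1 in 20. Without that sample the rise of Cldn1 in FL-shGFP against NL-shGFP was 4.84, the highest value among the fits with 1 sample left out.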

How the results depend on the processing

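Cldn8 (against NL-shGFP in both fatty-liver groups), Cldn15 (FL-shGFP against NL-shGFP) and Cldn1 (both comparisons with FL-shGFP) kept their calls under all 28 alternatives, and the cause of the other changes was not tested. Of FL-shGFP against NL-shGFP, 7 members rose and 2 fell; library totals alone left 1 that fell, pan-epithelial scaling left 2 that rose, and close NL-shGFP libraries summed left 4 that rose. Of FL-shAlpl against FL-shGFP, the 4 members that fell became 2 with pan-epithelial scaling, with only the 2 groups compared and with close NL-shGFP libraries summed. Of FL-shAlpl against NL-shGFP, the 1 that fell became 0 with library totals alone, no filter, either FPKM fit, the replicate block and close NL-shGFP libraries summed, and 2 with pan-epithelial scaling, 1 CPM in 5 samples, DESeq2, voom and only the 2 groups compared; the 1 that rose became 3 with library totals alone and either FPKM fit, and 2 with voom. There 3035 genes passed, 5302 with voom and 1340 with close NL-shGFP libraries summed. The sealing minus pore-forming difference of FL-shGFP against NL-shGFP was 3.57, and 2.51 with wide lists and 2.31 from summed FPKM. That of FL-shAlpl against FL-shGFP was -1.74, and -0.95 from summed FPKM and -0.92 without Cldn1.

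With 1 sample left out, FL-shGFP against NL-shGFP had 6841 to 8816 genes, 5 to 7 members higher and 2 lower, FL-shAlpl against FL-shGFP 4635 to 7158 genes, 0 to 1 higher and 1 to 5 lower, and FL-shAlpl against NL-shGFP 1979 to 3523 genes (the lowest without FL-shAlpl replicate 2), 1 to 2 higher and 0 to 2 lower. The differences that changed sign were ones that had not passed, save Cldn12 in FL-shGFP against NL-shGFP with pan-epithelial scaling (-0.21). With that scaling the others were Cldn4 in the same comparison (-0.14), Cldn12 in FL-shAlpl against FL-shGFP (0.086), and in FL-shAlpl against NL-shGFP Cldn1 (-0.015), Cldn3 (-0.26), Cldn7 (-0.15), Cldn12 (-0.13), Cldn23 (-0.28) and Ocln (-0.040). In FL-shAlpl against FL-shGFP, Cldn4 was -0.0047 with RLE factors, -0.018 with 1 CPM in 5 samples, -0.0044 with DESeq2, -0.074 with voom and -0.030 with the replicate block, Cldn12 was 0.00045 with library totals alone and 0.0014 and 0.0015 in the FPKM fits, and Cldn8 was -0.058 and -0.064 in the FPKM fits and -0.065 with the replicate block. Ranges over samples left out crossed 0 in FL-shAlpl against FL-shGFP for Cldn2 (-0.11 to 0.34), Cldn4 (-0.25 to 0.23) and Cldn8 (-0.22 to 0.37), and in FL-shAlpl against NL-shGFP for Cldn1 (-0.0070 to 1.04), Cldn3 (-0.030 to 0.16) and Cldn23 (-0.13 to 0.18).

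Samples of the same replicate number were compared by their deviations from the group means. In FL-shGFP against NL-shGFP replicates 1, 2 and 5 gave r of 0.129, 0.117 and 0.326, each correlating best with its own number, but replicates 3 and 4 gave -0.0499 and 0.07. The other comparisons ranged from -0.353 to 0.0907, so in none did every pair exceed 0.1 and the numbers were not taken to pair the samples. With the replicate block 5 members rose in FL-shGFP against NL-shGFP, Cldn12 (0.28, edgeR adjusted p = 0.0624) and Cldn23 (0.70, edgeR adjusted p = 0.0540) no longer passing, and neither Ocln in FL-shAlpl against FL-shGFP (edgeR adjusted p = 0.0805) nor Cldn15 in FL-shAlpl against NL-shGFP (edgeR adjusted p = 0.0581) passed. The replicate block gave 7295 genes in FL-shGFP against NL-shGFP, 5074 in FL-shAlpl against FL-shGFP and 2457 in FL-shAlpl against NL-shGFP. Whether depth or the spread between samples limits each member was not tested.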
